A study of Danio rerio with 8 samples.

Results

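Heat shock proteins and chaperones are the genes described here. They were taken from the authors' table of wild-type against tbx2b knockdown as the rows whose lower-case symbol starts with hsp, dnaj, cct2 to cct8, bag1 to bag6, hsf1 or hsf2. The pattern found 89 of 32433 rows, of which 76 carried a test among the 18954 tested rows of the whole table. Another 9 were not tested, and 4 inducible HSP70 genes were flagged as having too much data and hold no measurement. The pattern used symbols only, not expression. It also took in hspg2 and hspbap1, which are no chaperones and are counted among the 76.

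RNA was sequenced from fluorescence-sorted pineal complex cells out of heads of Tg(flhBAC:kaede)vu376 zebrafish embryos, staged at 24 to 26 hours post-fertilization. In this line the protein Kaede is made under regulatory sequence of flh, a homeobox gene of the pineal anlage, so the sort holds whichever head cells were Kaede-positive. The control group is wild-type and non-injected, and the other group received a tbx2b splice morpholino (MO) at 5 ng or 6 ng. Each group has 4 libraries. The labels tie these into technical duplicates of 2 RNA samples per group, and in the knockdown the RNA samples differ in dose. All embryos carry the transgene, and no group was injected with a control, so injection and knockdown cannot be told apart.

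Chaperones bind proteins that are not yet folded or have lost their fold. HSP70 proteins grip short greasy stretches and release them in a cycle driven by ATP, which J-domain proteins (HSP40) start and exchange factors such as BAG proteins end. HSP90 receives partly folded clients such as kinases and receptors from HSP70, small heat shock proteins hold unfolded chains without ATP, and chaperonins enclose a chain in a ring. Heat shock factor 1 (Hsf1) switches on the inducible members when unfolded protein builds up, while other members are made at all times by cells that synthesize protein.

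Every level below is the FPKM value (fragments scaled to transcript length and to all mapped fragments) of a whole group, wild-type first and knockdown second. With a single value for each group, neither the spread between libraries nor the depth is known, and fewer cells of a type cannot be told apart from less RNA per cell. Tests are those of the authors' deposited table. There q is the p value adjusted over all tested genes, and the significance flag is the call. Whether these tests counted technical duplicates as replicates was not given in the sources used here. If they did, the p and q values can be too small. The log2 fold changes were taken from the authors' deposited table too and set the knockdown over the wild-type, so a negative value is lower in the knockdown. Rescaling both groups to equal FPKM sums would add 0.106 to every log2 fold change, so values are read against the median of all genes. Gene roles are those known from mammals unless zebrafish is named.

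None of the 76 tested members of the heat shock and chaperone set was called in the authors' deposited table. Over all tested genes the share called was 0.438% (0.106% higher and 0.332% lower), which would amount to less than 1 gene in a set of this size, so the count of 0 says little about the set. Their log2 fold changes centred on 0, with 38 genes above and 38 below and a median of 0.00068. Over all tested genes the median was -0.03, with 8621 above and 10179 below. The middle 50% of the members lay between -0.13 and 0.14, and that of all tested genes between -0.26 and 0.17. Low levels widen fold changes, and 71 of the 76 members reached 1 FPKM in both groups. Over the 15109 tested genes at that level the middle 50% lay between -0.21 and 0.15. An unadjusted p under 0.05 in the authors' deposited table was reached by 2 of 76 genes (2.63%), both lower in the knockdown, against 5.53% of all tested genes (3.76% lower and 1.77% higher). Those genes are hsp90aa1.1, a cytosolic HSP90, and hspb11, a small heat shock protein. None of the 71 members at 1 FPKM or more in both groups differed by 2-fold or more.

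**Figure D1:**
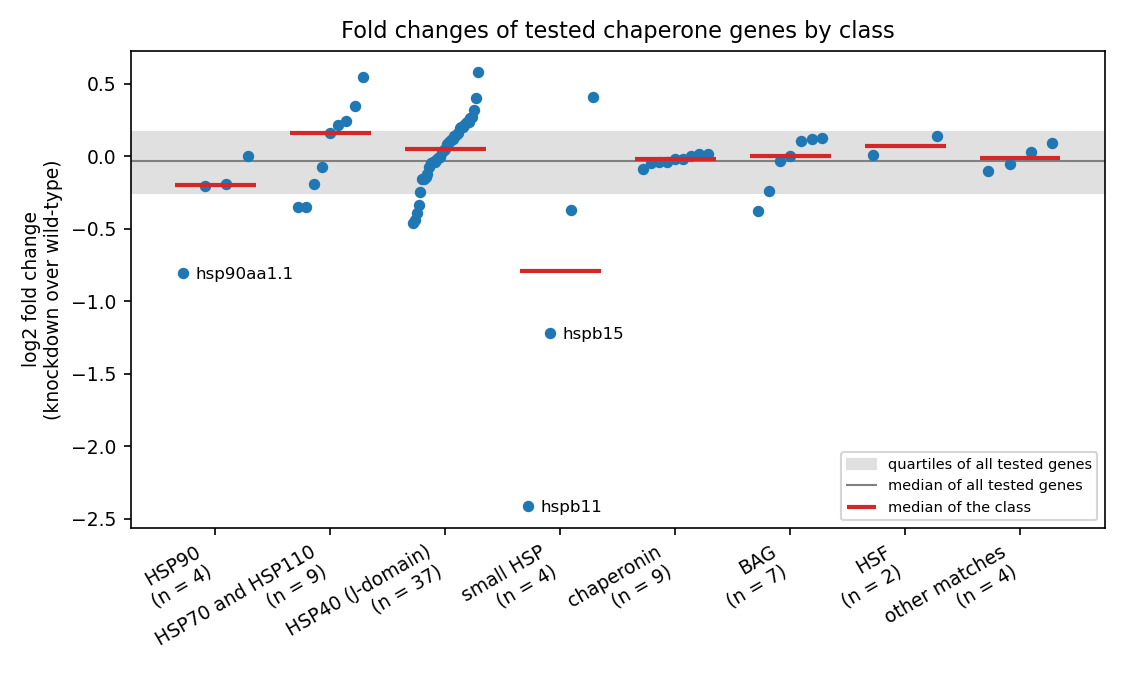
Log2 fold change (knockdown over wild-type, from the authors' table) of each of the 76 tested genes, by class, 1 point per gene, with the class median as a red line. The grey band spans the quartiles of all tested genes, from -0.26 to 0.17. The 9 chaperonin genes lie within 0.09 of 0, and hsp90aa1.1 and hspb11 lie below the other members of their classes.

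Several members were among the most abundant transcripts. The members' FPKM values summed to 24030 in wild-type and 22477 in knockdown cells, or 1.65% and 1.66% of the sum over all rows. The sum over all rows includes the most abundant row of the table, which alone takes 27.5% and 30.6%. Without that row the chaperone share was 2.28% and 2.39%. These member sums and shares lack the 4 inducible HSP70 genes that were flagged as having too much data and hold no measurement. Each member sum can therefore be too low by an unknown amount. How the share of the whole set compares between the groups cannot be read from these values. Of the 76 tested members 56 reached 10 FPKM in at least 1 group and 25 reached 100 FPKM. The constitutive cytosolic HSP70 hspa8 stood at rank 19 of all tested genes by mean FPKM, and hsp90ab1 and hsp90aa1.2 at ranks 78 and 100.

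HSP90 works as a dimer, and the pattern matched 3 cytosolic genes and 1 of the endoplasmic reticulum (ER). Hsp90ab1 (ENSDARG00000029150), the constitutive cytosolic form, was the most abundant at 3308 and 3307 FPKM, a log2 difference of -0.00048 in the authors' deposited table. Hsp90aa1.2 (ENSDARG00000024746), a cytosolic form of the alpha type, was at 2359 and 2068 FPKM. The ER form hsp90b1, also known as Grp94, was at 455 and 395 FPKM. None of these 3 reached an unadjusted p of 0.05 in the authors' deposited table. Over the 4 matched HSP90 genes the median log2 fold change was -0.20, or -0.091 with both groups rescaled to equal sums. Trap1, the mitochondrial HSP90, is not matched by the pattern and is counted with the cochaperones below. It was at 3.20 and 3.99 FPKM, a log2 fold change of 0.32 (p = 0.338 per the authors' deposited table).

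Hsp90aa1.1 (ENSDARG00000010478), the form that zebrafish striated muscle needs to build myofibrils, differed most within the class. Its values of 219 and 126 FPKM make it 1.74-fold lower in the knockdown, or -0.80 on the log2 scale. It was not called, since p = 0.0057 became q = 0.35 in the authors' deposited table. Of 1015 tested genes at 100 FPKM or more in at least 1 group, 34 had a log2 fold change as low or lower. Hsp90aa1.1 is 1 of these 34 and was the lowest of the 25 members at that level. It lies next to hsp90aa1.2 on Zv9 chromosome 20, at 54337467 to 54351275 against 54322746 to 54336769, with 698 bases between them as the file gives the positions. Hsp90aa1.2 was 10.8 times as abundant as hsp90aa1.1 in wild-type cells and 16.4 times in knockdown cells. These neighbours are close paralogs, and how reads that match both were counted was not given in the sources used here.

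Markers of striated muscle are given beside this gene. The 20 skeletal muscle markers summed to 31.1 and 29.0 FPKM, with 1 of them, myog, at 0 in both groups. Of 9 tested none was called, 6 lay above 0 and 3 below, and the muscle regulator myod1, at 0.865 and 0.244 FPKM, was the 1 with an unadjusted p under 0.05 (p = 0.00425 per the authors' deposited table). Heart muscle markers summed to 4.31 and 19.4 FPKM over 9 rows, none of them at 0 in both groups. Of 6 tested heart markers 4 were called higher in the authors' deposited table, against 0.106% of all tested genes. The part of muscle cells in the hsp90aa1.1 value was not tested.

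HSP70 genes differed widely in level. Hspa8 (ENSDARG00000068992), the constitutive cytosolic HSP70, was the most abundant of the tested members, at 5711 and 5006 FPKM (p = 0.723 per the authors' deposited table). Hspa5, the HSP70 of the ER known as BiP, was at 1527 and 1450.0 FPKM. Hspa8l, a further gene of the HSPA8 type, was at 457 and 359 FPKM, a log2 fold change of -0.35 (p = 0.287 per the authors' deposited table). Hspa9, the mitochondrial HSP70, was at 117 and 131 FPKM, and hspa14, an HSP70 found at the ribosome, at 41.7 and 52.9 FPKM. Hspa13, a small HSP70 of microsomes, was low at 2.17 and 2.55 FPKM. None of these was called. Of the 9 tested HSP70 and HSP110 genes 5 lay above 0 and 4 below, with a median log2 fold change of 0.16 that turned to -0.046 when HSP70 genes listed under other names were added.

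The HSP110 genes are HSP70 relatives that act as exchange factors. Hspa4a was at 442 and 347 FPKM, a log2 fold change of -0.35 in the authors' deposited table, while its paralog hspa4b was at 88.5 and 103 FPKM, a log2 fold change of 0.21. Hspa4a was 4.99 times as abundant as hspa4b in wild-type and 3.38 times in knockdown cells. The hspa4a row shares its locus with zcchc10, listed at 181 and 139 FPKM, so reads of the overlapping gene can enter either value. Hspa12b, a divergent HSP70 of endothelium, was at 2.68 and 3.90 FPKM (p = 0.82 per the authors' deposited table). Its row lies in 1 merged locus with cct7, at 442 FPKM in wild-type. Endothelial markers (14 tested) summed to 206 and 300.2 FPKM, with 13 above 0 on the log2 scale and none at 0 in both groups. Of these markers 4 were called higher in the authors' deposited table, against 0.106% of all tested genes. Their part in the hspa12b value was not tested.

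Of the HSP70 genes known for induction by heat, 4 could not be read at all. Hsp70.1, hsp70.2, hsp70.3 and hsp70l carry the status HIDATA, by which Cuffdiff marks a locus with too many fragments to process, and they are listed at 0 in both groups. Only 7 rows of the whole table carry this status, and 4 of them are these genes. Hsp70.1, hsp70.2 and hsp70.3 lie in a locus of Zv9 chromosome 3 from 26878040 to 26953764 that also holds the calcium pump gene atp2a1 and zgc:162612, so the file does not show which of these 5 genes the fragments came from. Hsp70l (ENSDARG00000055723) is the only row of its locus, on chromosome 8 from 5006698 to 5009452. A listed 0 is no measurement for these genes, and how they compare between the groups cannot be said from the table. The HSP70 row si:ch211-199o1.2, whose current name is hspa1b, was tested and is given with the rows under other names.

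**Figure D2:**
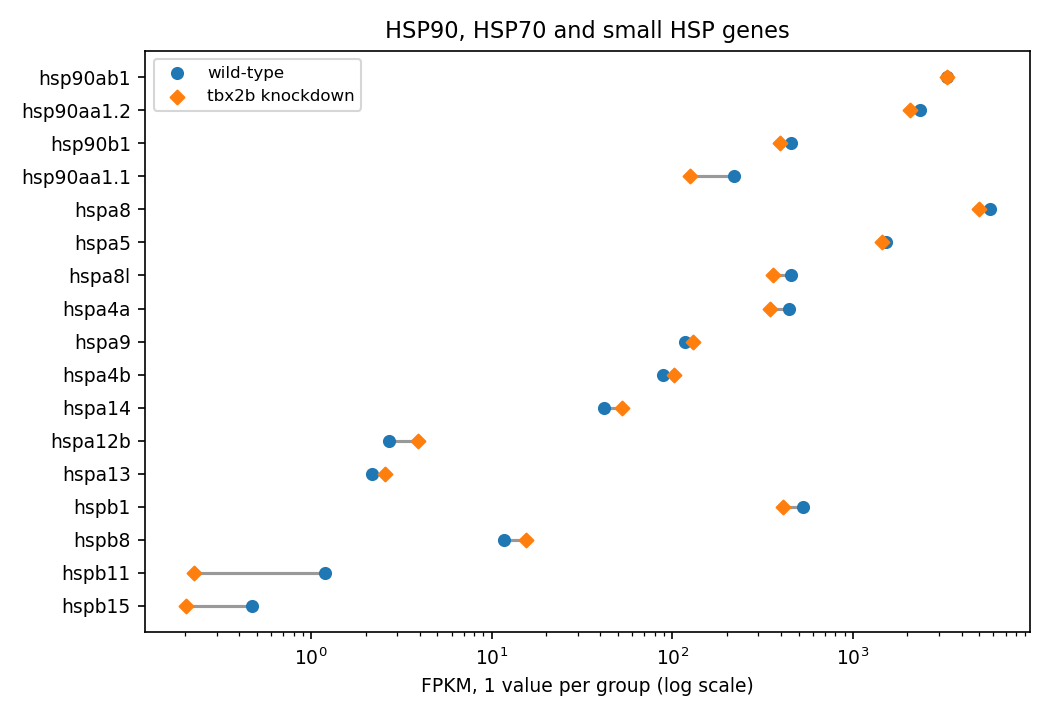
FPKM of the tested HSP90, HSP70 and small HSP genes on a log axis, with circles for wild-type and diamonds for knockdown, 1 group value each and no error available. Hspa8 is highest at 5711 and 5006 FPKM, and hsp90aa1.1 shows a gap from 219 to 126 FPKM.

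Small nucleolar RNAs are listed inside the hspa8 locus (Zv9 chromosome 10, 30757253 to 30761585). All 3 rows named SNORD14, which guide chemical marking of ribosomal RNA, share this locus, and 1 of them was called. That row (ENSDARG00000082008) was listed at 0 and at 104 FPKM (q = 0.0457 per the authors' deposited table). The other rows had the opposite direction, ENSDARG00000082105 at 223 and 104 FPKM and ENSDARG00000081235 at 128 and 26.2 FPKM (q = 0.149 and q = 0.246 per the authors' deposited table). Summed over the 3 rows the level was 352 in wild-type and 235 in knockdown cells. The called row and the second one carry the same FPKM value in the knockdown. They share a name, and how reads were divided between copies was not given in the sources used here. Its host row hspa8 had a log2 fold change of -0.19 in the authors' deposited table.

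J-domain proteins bring clients to HSP70 and trigger its ATP hydrolysis, and with 37 tested genes they form the largest class. None was called, 21 lay above 0 and 16 below, and the median log2 fold change was 0.05. Dnajb1b, a cytosolic partner of HSP70 in the heat shock response, stood highest at 1405 and 1365 FPKM, in a locus shared with 1 other row. It was 53.0 times as abundant as its paralog dnajb1a in wild-type cells, which was at 26.5 and 21.0 FPKM. Next among the matched rows were dnaja2 at 127 and 146 FPKM and dnajc8, a splicing-associated J protein, at 121 and 111 FPKM. Dnaja2l followed at 98.1 and 95.4 FPKM. DNAJA4, listed in capital letters and read apart below, lay between dnajb1b and dnaja2 at 626 and 562 FPKM. Dnajc8 shares a merged locus with 19 other rows. Apart from dnajb1b, dnaja2 and dnajc8, all 34 other tested rows that match the pattern lay under 100 FPKM in both groups.

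Grouped by where the proteins work, J genes gave small differences in both directions. This grouping was made after the values were seen. Of 8 matched rows for J proteins of the ER, 7 lay above 0 with a median log2 fold change of 0.21. Rows for ER J proteins under other names lay on both sides of 0. DNAJB14 was at 0.41, DNAJC25 at 0.33 and the DNAJC16 rows at 0.54 and 0.15 on the log2 scale. DNAJB9 was at -0.085, a second row with that current name at -0.13, prkri (current name dnajc3b) at -0.19 and DNAJC14 at -0.39. Among the matched rows dnajc1, an ER membrane J protein that binds ribosomes, was at 38.3 and 46.2 FPKM. Dnajb11, a BiP partner, was at 28.5 and 33.2 FPKM, and dnajc10, a disulfide reductase, at 13.8 and 17.2 FPKM. The HSP70 of the ER, hspa5, was at -0.07 on the log2 scale and ER hsp90b1 at -0.20 in the authors' deposited table. Dnajb12b is listed at 2 loci of chromosome 12 with opposite signs, at 1.15 and 1.72 FPKM and at 0.517 and 0.38 FPKM, both near the bottom of the class.

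The 2 ribosome-linked J genes lay above 0 on the log2 scale. Dnajc2, which acts on nascent chains at the ribosome, was at 23.7 and 31.3 FPKM, a log2 fold change of 0.40 (p = 0.217 per the authors' deposited table). Dnajc21, needed to mature the large ribosomal subunit, was at 9.60 and 11.3 FPKM. The mitochondrial import-motor J proteins dnajc15 and dnajc19 had 10.7 and 11.9 FPKM and 10.8 and 11.7 FPKM. Dnajc11 of the inner membrane organizing system had 25.5 and 30.5 FPKM. Further J genes of mitochondria were placed in other groups or stand under other names, and they lay on both sides of 0. Dnaja3a was at 0.084 and DNAJA3 (2 of 2) at 0.015 on the log2 scale. Dnajc28 and dnajc4 were each at -0.16 and DNAJC30 at -0.83. The 4 tested cysteine string protein genes, chaperones of synaptic vesicle proteins, lay between -0.15 and -0.0065, led by dnajc5ab at 16.5 FPKM in both groups. Auxilin (dnajc6), which strips clathrin from vesicles in neurons, was at 3.22 and 3.80 FPKM.

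Among the matched rows, cytosolic J proteins held the lowest log2 fold changes of the class next to a dnajb12b row, none of them called. Dnajb4 was at 12.4 and 9.01 FPKM (-0.46 on the log2 scale) and dnaja1l at 66.7 and 50.8 FPKM (-0.39) (p = 0.144 and p = 0.0813 per the authors' deposited table). Dnajb6a and dnajb6b block aggregation. The first was at 67.5 and 68.8 FPKM, its paralog at 7.93 and 6.68 FPKM. The nuclear histone chaperone dnajc9 was at 54.8 and 56.3 FPKM. Of the J genes that were not tested, dnajc5b was listed at 0.105 and 0 FPKM, dnajc17 at 0 in both groups and dnajc22 at 0.0628 and 0.138 FPKM.

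**Figure D3:**
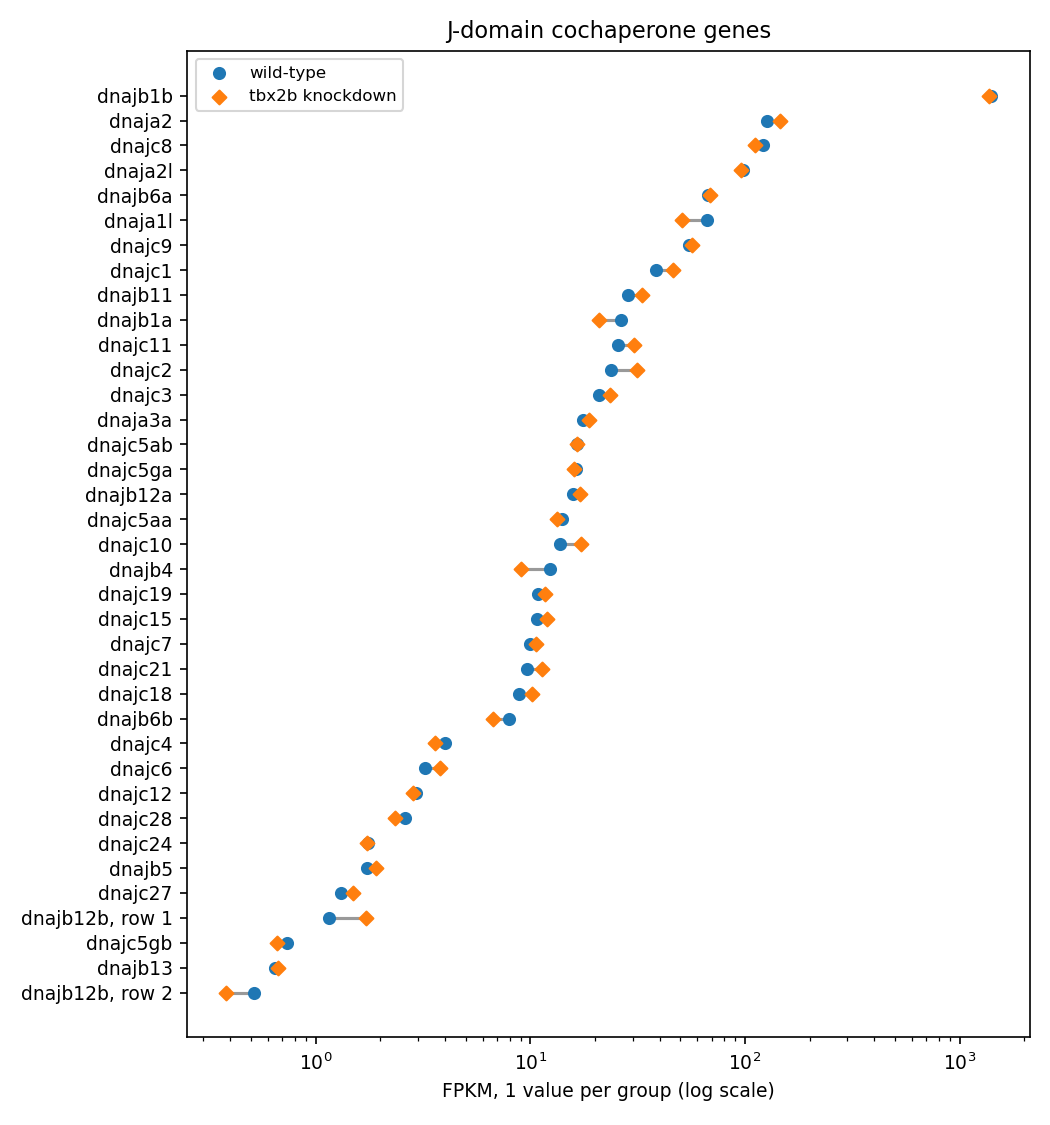
FPKM of the 37 tested J-domain rows on a log axis, ordered by the wild-type value, with circles for wild-type and diamonds for knockdown. Among these rows dnajb1b lies 11.1 times above the next gene, dnaja2, in wild-type cells. DNAJA4, at 626 and 562 FPKM, is not drawn. The pairs of symbols overlap or nearly so for most genes.

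The cytosolic chaperonin is a double ring built from different subunits, each present once per ring, and it folds actin and tubulin. The 7 subunit genes that match the pattern, cct2, cct3, cct4, cct5, cct6a, cct7 and cct8, lay within a narrow range of level. In wild-type cells they ran from 396 FPKM (cct3) to 566 FPKM (cct4), with a median of 471, and in knockdown cells from 397 to 571 FPKM, with a median of 457. The highest was 1.43 times the lowest in wild-type and 1.44 times in knockdown cells. Tcp1, the remaining subunit, is not matched by the pattern and fell inside this range at 437 and 424 FPKM. The row CCT2 (2 of 2) is not matched either and lay above this range at 671 and 685 FPKM. Its current name is cct2, while the matched cct2 row has no current name.

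Between the groups the ring subunits were nearly the same in value. Their log2 fold changes in the authors' deposited table ran from -0.04 (cct6a) to 0.02 (cct2), and all 7 lay within 0.05 of 0 on the deposited scale. Of all tested genes at 100 FPKM or more in at least 1 group, 18.1% lay that close. Of the 25 such chaperone genes 11 did (44%), but 7 of these 11 are the ring subunits themselves. The limit of 0.05 lies just outside the lowest log2 fold change of the ring, -0.044 for cct6a. That all 7 fall within it is therefore no separate result. With both groups rescaled to equal sums, which adds 0.106, none of the 7 would lie within 0.05 of 0. Cct2 was at 546 and 553 FPKM, and a second row named CCT2 (2 of 2) at 671 and 685 FPKM. How alike their sequences are was not examined, and any reads that match both could be divided between them. The absence of a call does not show that the subunits are equal between groups, since no spread can be given.

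The mitochondrial chaperonin Hsp60 (hspd1) and its lid Hsp10 (hspe1) are neighbours on Zv9 chromosome 9, with 233 bases between the listed end of hspd1 at 33334091 and the start of hspe1 at 33334324. Hspd1 was at 284 and 267 FPKM and hspe1 at 474 and 468 FPKM. The lid gene was 1.67 times as abundant as the barrel gene in wild-type and 1.75 times in knockdown cells. Neither was called (p = 0.707 and p = 0.94 per the authors' deposited table).

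**Figure D4:**
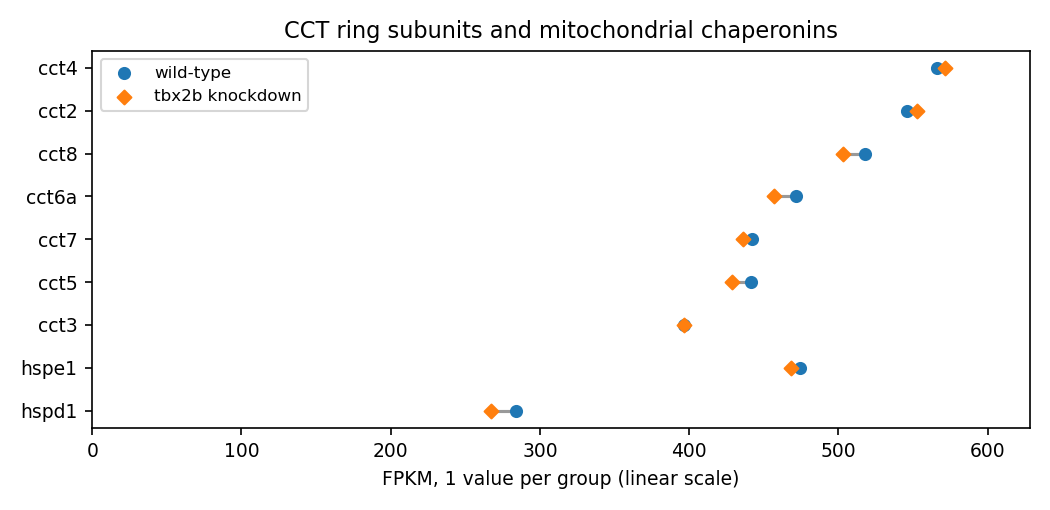
FPKM of the 7 matched CCT ring subunits and of hspd1 and hspe1 on a linear axis from 0, with circles for wild-type and diamonds for knockdown. These ring subunits sit between 396 and 571 FPKM, and the 2 symbols of each gene nearly coincide. The row CCT2 (2 of 2), at 671 and 685 FPKM, is not drawn.

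Small heat shock proteins share the alpha-crystallin domain, and here 1 gene dominated. Hspb1 (ENSDARG00000041065), the Hsp27 gene, was at 527 and 408 FPKM, a log2 fold change of -0.37 (p = 0.216 per the authors' deposited table). Hspb8, the partner of Bag3, was at 11.7 and 15.5 FPKM. Hspb11 (ENSDARG00000002204, chromosome 21, 19211801 to 19212563) was at 1.19 and 0.223 FPKM, 5.32-fold lower (p = 0.0161 and q = 0.598 per the authors' deposited table). Hspb15 was at 0.47 and 0.202 FPKM. The median log2 fold change of the 4 tested genes was -0.80, but it was 0.018 over hspb1 and hspb8, which reached 1 FPKM in both groups. At levels this low the error of a fold change can be large, and it cannot be given here. The current-name table calls the hspb11 row hspb9l, and gives the name hspb11 to the row listed as HSPB11, which was at 5.54 and 5.50 FPKM.

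The remaining small heat shock genes were barely detected. Hspb6, hspb7 and hspb9 were listed between 0.0768 and 0.431 FPKM, hspb2 at 0 and 0.0773 FPKM, and hspb3 and hspb12 at 0 in both groups, all without a test. The alpha-crystallins cryaba and cryabb, of the same family, were also listed below 0.3 FPKM and not tested. The lens list (20 rows, summed level 69.4 and 38.6 FPKM, none at 0 in both groups) had 13 of 14 tested genes below 0, with a median of -1.13. None was called in the authors' deposited table, and 10 had an unadjusted p under 0.05 there, all lower, against 3.76% of all tested genes. Its part in the hspb11 and hspb15 values was not tested.

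BAG proteins pull ADP from HSP70 and tie it to other machinery. Bag3 (ENSDARG00000039486), which links HSP70 and Hspb8 to autophagy, was the most abundant at 52.2 and 40.1 FPKM, a log2 fold change of -0.38 (p = 0.144 per the authors' deposited table). Bag6, which guards proteins bound for the ER membrane, was at 34.9 and 37.8 FPKM, and bag6l at 13.5 and 13.1 FPKM. Bag1 was at 19.3 and 21.0 FPKM and bag4, which binds death receptors, at 9.57 and 10.3 FPKM. Bag2, an inhibitor of the ligase Stub1, was at 6.56 and 5.57 FPKM, and bag5 at 6.12 and 6.13 FPKM. Within the family bag3 had the lowest log2 fold change and the others lay between -0.24 and 0.12.

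The heat shock factors themselves were close in value between groups. Hsf1, the master regulator of the heat shock response, was at 11.0 and 12.1 FPKM (p = 0.621 per the authors' deposited table). Hsf2, which acts in development and can pair with Hsf1, was at 38.2 and 38.3 FPKM (p = 0.983 per the authors' deposited table). Hsf1 activity is set mainly after translation, so these transcript levels do not measure it.

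The other 4 rows matched the pattern without belonging to a class above. Hsp47 (ENSDARG00000019949) is the collagen chaperone of the ER, and it was at 1939 and 1979 FPKM, among the most abundant members. Hspbp1, an exchange factor for HSP70, was at 192 and 179 FPKM. Hspg2, which encodes the matrix proteoglycan perlecan, and hspbap1, a protein that binds HSPB1, are no chaperones and had 6.49 and 6.90 FPKM and 1.89 and 1.82 FPKM.

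The outer members were sorted by a log2 fold change of 0.3 in either direction, a limit chosen after the values were seen. At -0.3 or less lay 11 of 76 genes (14.5%), against 21.8% of all tested genes, and at 0.3 or more lay 6 (7.89%), against 14.8%. Among members at 100 FPKM or more in at least 1 group the lower set held 4 of 25 (16%), against 16.7% of all tested genes at that level, and the higher set held none, against 6.8%. Those 4 genes are hsp90aa1.1, hspb1, hspa4a and hspa8l. Shares this near to or below the background do not set the members apart.

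Some chaperone genes stand in the table under capital letters or another name and were read apart. Of 22 such rows 19 were tested and none was called, with a median log2 fold change of -0.046. DNAJA4, a J protein, was at 626 and 562 FPKM and HSPH1, an HSP110, at 117 and 113 FPKM. HSPA4L, a further HSP110, was at 16.9 and 11.8 FPKM (p = 0.0459 per the authors' deposited table). The row si:ch211-199o1.2, which the current-name table calls hspa1b, was at 15.8 and 10.9 FPKM (p = 0.102 per the authors' deposited table).

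Genes that work with these chaperones were read from lists of their own. Of 22 tested cochaperones of HSP70 and HSP90, of which hspbp1 is also a member above, none was called, and 11 lay on either side of 0. Fkbp4, an HSP90 partner of steroid receptors, was at 392 and 296 FPKM, and ttc4, which links both machines, at 9.34 and 13.4 FPKM (p = 0.0503 per the authors' deposited table). Chordc1 was at 22.2 and 26.1 FPKM. None of 10 prefoldin and tubulin-folding genes was called, with tbcd, which assembles tubulin dimers, at 19.5 and 14.8 FPKM and the prefoldin subunits pfdn2 and pfdn5 at 46.1 and 58.0 FPKM and at 138 and 161 FPKM. Of 7 genes for mitochondrial folding and proteolysis none was called either, with the protease genes clpp at 31.2 and 40.1 FPKM and lonp1 at 52.4 and 45.4 FPKM, and grpel1, the exchange factor of mitochondrial HSP70, at 21.3 and 27.2 FPKM.

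Of 31 tested genes for ER folding and the unfolded protein response, which include hsp47, none was called and 16 lay above 0 with a median of 0.01. The stress genes ddit3, which encodes Chop, at 20.5 and 12.9 FPKM, and PPP1R15A, which restarts translation, at 313 and 203 FPKM, had unadjusted p values of 0.0186 and 0.0105 in the authors' deposited table. Creld2 was at 12.8 and 9.78 FPKM. Other stress-induced genes (18 tested, none called) had 9 on either side of 0, with an unadjusted p under 0.05 for 1 of them. That gene is the metallothionein mt2, at 5.84 and 1.52 FPKM (p = 0.00055 and q = 0.0883 per the authors' deposited table). Of the more abundant genes prdx1, a peroxide scavenger, was at 111 and 82.5 FPKM, atf3 at 478 and 358 FPKM and sqstm1 at 49.2 and 39.7 FPKM. The 76 tested members had a median log2 fold change of 0.00068, with 11 of them at -0.3 or less. Dissociation and immediate early genes lay lower as a list. Of 25 tested, 23 lay below 0 with a median of -0.36, and 1 was called, gadd45bb, from 41.8 down to 17.1 FPKM (q = 0.0176 per the authors' deposited table). Over all tested genes 10179 lay below 0 and 8621 above, and 0.332% were called lower. Like the other lists, this one was chosen with earlier results of these data known. Gadd45ba was at 153 and 90.3 FPKM and jun at 758 and 459 FPKM without a call, and atf3 stands in both lists.

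**Figure D5:**
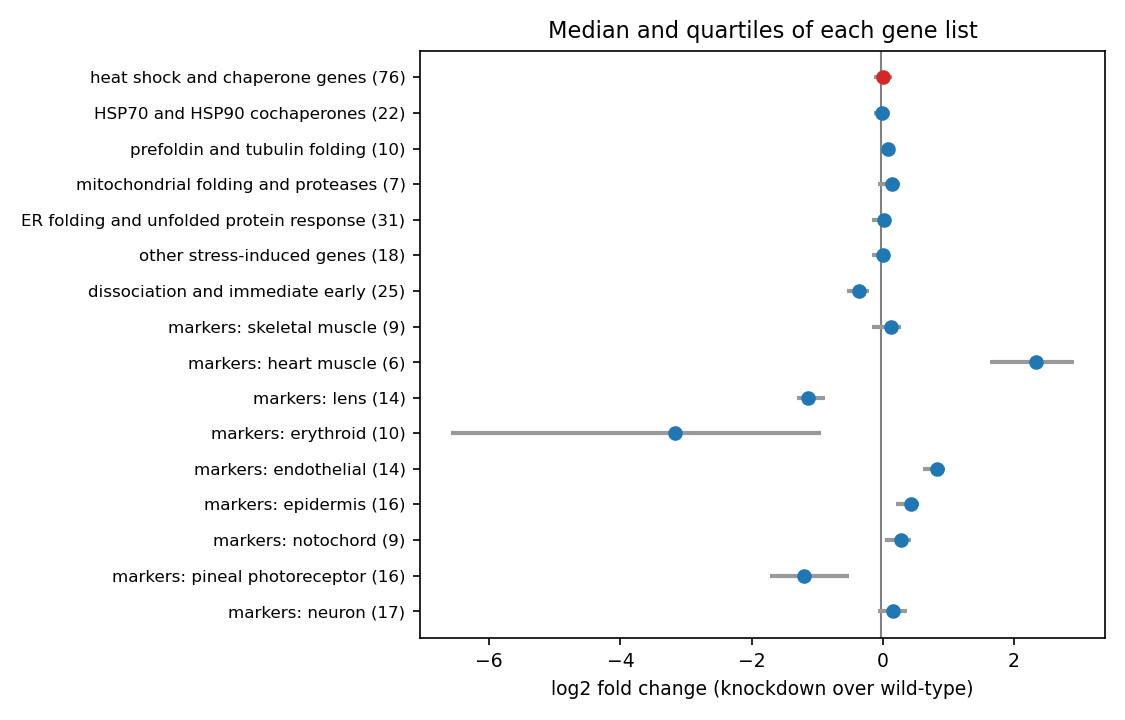
Median (point) and quartiles (line) of the log2 fold change, knockdown over wild-type, for the 76 tested members (red) and 15 other lists (blue), with the number of genes used in brackets. The grey vertical line is the median of all tested genes, -0.03. The folding lists have medians between -0.0087 and 0.14. The quartiles of the immediate early, lens, erythroid and pineal photoreceptor lists lie wholly below 0, and those of the heart, endothelial, epidermal and notochord lists wholly above it.

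Markers of several other cell types differed between the groups. Over all tested genes 0.332% were called lower and 0.106% higher. The marker lists were chosen with earlier results of these data known. Of 16 tested pineal photoreceptor markers 7 were called lower in the authors' deposited table, and the 19 rows summed to 151 and 70.085 FPKM, with 1 at 0 in both groups. The reporter's parent gene flh was at 238 and 129 FPKM (q = 0.0986 per the authors' deposited table). Erythroid markers summed to 142 and 24.9 FPKM (4 of 12 tested called, 3 lower and 1 higher), epidermal markers to 1038 and 1327 FPKM and neuronal markers to 812 and 936 FPKM, with no epidermal or neuronal gene called. Notochord markers, which include flh, summed to 338 and 253 FPKM with none of 9 called. Without flh the sum was 99.96 and 124 FPKM, and 7 of the other 8 lay above 0. The part of these shifts in any chaperone value was not tested. The targeted gene tbx2b was at 17.4 and 18.3 FPKM, and a splice morpholino need not lower a gene-level count, so this value does not check the knockdown.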

How the data were processed

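The submitters' processing notes name Cuffdiff, TopHat2 and Bowtie2, with Trimmomatic 0.32, FastQC 0.10.0 and CASAVA 1.8.2, for the 8 libraries and the build Zv9. Which settings, annotation and treatment of duplicate libraries were chosen was not given in the sources used here. As deposited, the table holds 1 FPKM value per gene and group, a log2 fold change, a p-value and q-value, and a test statistic (a score) with its significance flag, per the file headers. Adjusting the deposited p by Benjamini-Hochberg over the 18954 tested genes gives the deposited q to within 5.2e-07. FPKM depends on the other RNAs sampled, and genes with merged loci (15 of the 76 tested members) can share reads. The depth is unknown.

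No test was added, because group values hold no replicates. Counts, medians and sums were computed with Python 3.11.15, pandas 2.3.3 and numpy 2.4.6, and the summary function was tested on simulated data. The members and lists were chosen with earlier results of these data known. Of 286 list entries 263 were matched, 36 of them by gene identifier or synonym. Genes were named by rule: every HSP90, HSP70, BAG and HSF gene, those with p under 0.05, the 5 most abundant and the 3 largest differences in each direction of the other classes, every untested row, and, of the lists of genes that work with chaperones or respond to stress, called genes and the 3 largest differences among genes at 10 FPKM or more in at least 1 group. Other J-domain genes, si:ch211-199o1.2, DNAJA4, HSPH1, HSPA4L, mt2, myod1 and the SNORD14 rows were chosen after their values were seen. The rule also covered the marker lists, which are summarised without naming their called genes. No sequences are shown.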

Additional observations from a re-analysis of the deposited data

How the results depend on the processing

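No paired analysis was possible because the table holds a single value for each group, so leaving out libraries was not run either. With a deposited q under 0.1, or a fold of 2 or more at 1 FPKM in both groups, the count of members stayed at 0, and at an unadjusted p under 0.05 it was 2. For the other lists the count of called genes was 20, and at an unadjusted p under 0.05 it was 58, a setting added after seeing the data. Medians were taken to have moved when they shifted by 0.1 or more. Rescaling each group to TPM adds 0.106 to every log2 fold change, which put the median at 0.11 for all members, -0.091 for HSP90, 0.27 for HSP70, 0.16 for J-domain, 0.088 for chaperonin, 0.11 for BAG, 0.18 for HSF and -0.69 for small HSP genes. The sign of the chaperonin median and of 18 members just below 0 therefore depends on the scaling, and all CCT subunits share that shift. The small HSP median of -0.80 rests on 4 genes and was -0.33 on log2(FPKM + 1) and 0.018 over members at 1 FPKM or more, which leaves 2 genes. Adding HSP70 genes listed under other names, a setting added after seeing the data, moved the HSP70 median from 0.16 to -0.046. The other 43 recomputed values moved by less than 0.1 or kept their count within 1.5 times.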
